A study of Homo sapiens with 8 samples.

Results

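Solute carriers (SLC genes) are the largest group of membrane transport proteins in human cells. Each family moves a related set of small molecules or ions, such as sugars, amino acids, zinc, phosphate or lactate, across the plasma membrane or the membranes of lysosomes, the Golgi apparatus or mitochondria. The SLC25 family exchanges metabolites and nucleotides across the inner mitochondrial membrane, the SLC35 family brings nucleotide sugars into the Golgi apparatus and the endoplasmic reticulum, and the SLC30 and SLC39 families carry zinc out of and into the cytosol.

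The solute carriers described here were selected on their measured footprint counts: gene regions with a symbol that starts with SLC and a digit, and with at least 400 footprints on the coding sequence summed over 8 ribosome profiling (Ribo-seq) libraries. Of 20165 gene regions in the files, 375 carried such a symbol. Of these, 9 amino acid transporters (SLC7A5, SLC3A2, SLC7A11, SLC1A5, SLC38A2, SLC38A1, SLC7A1, SLC1A4 and SLC43A1) were left out, and 223 others fell short of 400 footprints, 90 of them with no coding footprint at all, which left 143 regions of 42 families. Just inside the threshold were SLC41A2 (402 footprints), SLC38A6 (406) and SLC25A29 (416), and just outside it were SLC37A1 (376), SLC25A40 (368) and SLC40A1 (361). Of the 143 regions, 6 also hold another gene, so that their counts cannot be assigned to the carrier: SLC2A11 (with MIF), SLC25A10 (with MRPL12), SLC25A51, SLC35A1, SLC35E1 and SLC4A5. The symbols of another 2, SLC2A4RG and SLC4A1AP, belong to proteins that are not transporters. For SLC25A5, SLC25A6 and SLC25A4, which have near-identical sequences and pseudogene copies, counts are uncertain because a read could have up to 64 hits.

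A footprint is the piece of mRNA that a bound ribosome protects during RNase digestion. Counts of footprints therefore depend on the amount of an mRNA as well as on how heavily it is translated. All libraries came from OVCAR3, an established human ovarian cancer cell line, in 4 groups of 2 libraries. In one experiment, cells were transfected with 30 nM siRNA, either a control (siControl) or against OARD1, the gene of the mono(ADP-ribose) hydrolase TARG1 (siTARG1). The methods list 2 TARG1 siRNAs, and which of them made these libraries is not given in the sources used here. In the other experiment, cells carried a doxycycline-inducible shRNA against endogenous RACK1, a protein of the small ribosomal subunit, and an inducible vector for HA-tagged RACK1, as wild type protein (RACK1-WT) or with MARylation sites changed by D144N, E145Q and D203N (RACK1-Mut). Both of these groups received 1 µg/ml doxycycline, and all cells were harvested after 48 h. One comparison asks how ribosome occupancy differs once the hydrolase is depleted, and the other how it differs once RACK1 cannot be MARylated at those sites. They share no libraries. The RACK1 lines are infected cells under selection. The methods describe the repeats of sequencing experiments as independent biological samples, and the labels do not say how the 2 libraries of a group were separated.

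The libraries held 3100947 to 6604190 coding footprints. Normalized counts of OARD1 were 121.3 and 69.1 in siControl and 5.83 and 6.75 in siTARG1 cells. RACK1 had 23330 and 23590 in RACK1-WT and 17740 and 17270 in RACK1-Mut cells (log2 fold change -0.42, adjusted p 1.34e-08 in DESeq2). The RACK1 groups thus differed in RACK1 footprints as well as in the mutated sites. Counts here do not separate endogenous from re-expressed RACK1. In the siRNA experiment RACK1 had 12320 and 13030 in siControl and 10040 and 11270 in siTARG1 cells (-0.25, adjusted p 0.00297 in DESeq2). All 8 listed markers of ovarian carcinoma cells (MUC16, PAX8, EPCAM, KRT8, KRT18, KRT7, CDH1 and MSLN) had footprints in every library. The leukocyte gene PTPRC had 4 in all and the fibroblast gene COL3A1 20, whereas COL1A1 had 18.4 to 37.4 CPM (counts per 1000000 coding footprints) and the endothelial gene PECAM1 matched no region. Between the siRNA groups, KRT8 (3310 and 3403 CPM in siControl, 1604 and 1846 in siTARG1) and KRT18 (3339 and 3148 against 1347 and 1533) were lower and CDH1 higher (206.5 and 216.1 against 681.8 and 701.4) in siTARG1 cells. KRT7 was higher there (666.8 and 623.7 against 916.6 and 963.4), and MUC16, PAX8, EPCAM and MSLN were not called. The part of such differences in the results below was not tested. In bulk libraries, a difference in cell composition and a difference in footprints per cell cannot be told apart.

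The solute carriers took 1.22% to 1.25% of all coding footprints in the siRNA libraries and 1.30% to 1.32% in the RACK1 libraries. This share includes the regions that join another gene, and the SLC2A11 region with MIF alone held 42402 coding footprints. Levels are given as footprints per kb of coding sequence per 1000000 coding footprints, which allows genes of different length to be compared. The most abundant carrier was SLC25A5, the main ADP/ATP carrier of proliferating cells, at 908.2 to 1236. Next came SLC34A2, a sodium-phosphate cotransporter of epithelia and a surface antigen of ovarian cancers, at 781.0 to 940.7. These ranges overlapped, but SLC25A5 stood above SLC34A2 within each of the 8 libraries. The region that joins SLC2A11 with MIF, a short and abundant cytokine gene, lay at 513.4 to 965.3 and is not a measure of the sugar transporter. SLC25A3, the mitochondrial phosphate carrier, ranged from 447.6 to 724.7.

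After these 4 regions the level dropped. SLC50A1, a sugar transporter of the SWEET family, ranged from 100.3 to 408.2, SLC25A6, another ADP/ATP carrier, from 210.4 to 258.4, and SLC16A1 (MCT1), which moves lactate and pyruvate with protons, from 177.9 to 281.4. The 10 most abundant regions ended with the orphan carrier SLC35F5 (74.5 to 257.5), the SLC25A10 region (108.0 to 148.7) and SLC16A3 (MCT4), the lactate exporter of glycolytic cells (88.5 to 150.4). Ranges of neighbours in this order overlapped at every step but the one from SLC25A3 to SLC50A1, so most of the order rests on medians over the 8 libraries. Among other classes the leaders were SLC39A7, a zinc transporter of the endoplasmic reticulum (127.3 to 137.0), the nucleoside transporter SLC29A2 (42.7 to 127.4), the copper importer SLC31A1 (44.7 to 139.3), the heme transporter SLC48A1 (60.0 to 84.6), the sulfate transporter SLC26A2 (10.3 to 83.1), the lysosomal amino acid sensor SLC38A9 (22.95 to 48.7), SLC22A18 (26.6 to 38.6) and the fatty acid transporter SLC27A4 (15.4 to 26.9). SLC39A7 had the narrowest spread of these. Of the regions named here, SLC25A5, SLC25A3, SLC50A1, SLC35F5, SLC29A2, SLC26A2, SLC22A18 and the SLC25A10 region stood higher in all 4 libraries of the RACK1 experiment than in all 4 of the siRNA experiment, and SLC31A1, SLC38A9 and the SLC2A11 region stood lower. The experiments used different cells and were not compared by a test.

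**Figure D1:**
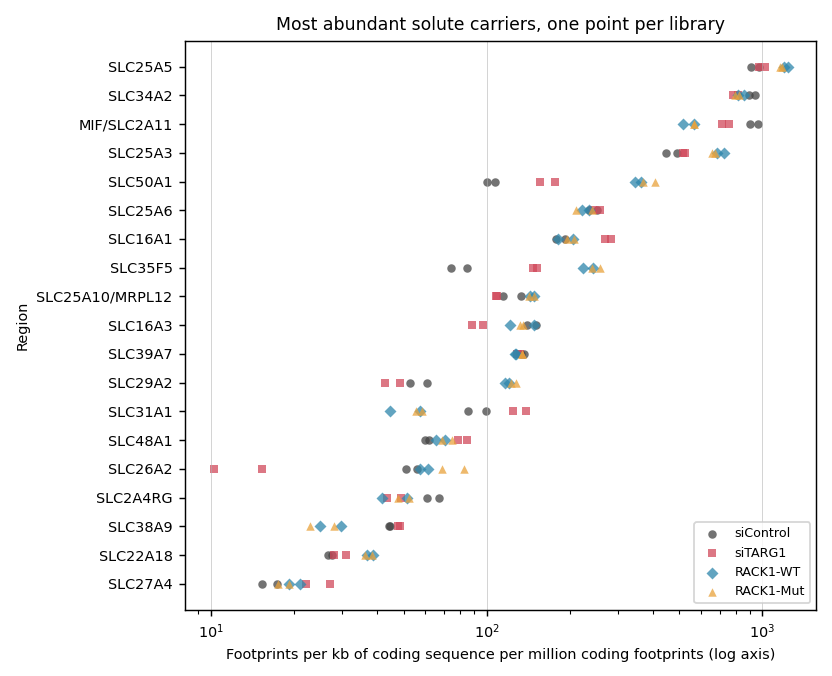
Levels of the 10 most abundant regions and of the leading region of each class, in footprints per kb of coding sequence per 1000000 coding footprints on a log axis, with one point per library. SLC39A7 stays between 127.3 and 137.0 in all libraries, whereas SLC26A2 ranges from 10.3 in a siTARG1 library to 83.1 in a RACK1-Mut library.

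By class, the 24 mitochondrial carriers took 22.96% to 26.1% of the footprints on all 143 regions. The 3 phosphate transporters took 13.6% to 16.3%, nearly all of it on SLC34A2, and the 16 zinc transporters 9.44% to 10.7%. The 17 amino acid and peptide transporters that were kept took 3.79% to 5.17%.

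Footprints of 39 of the 143 solute carriers differed between siTARG1 and siControl cells at an adjusted p under 0.05 (DESeq2, Benjamini-Hochberg over all regions tested), 19 higher and 20 lower. The rises were led by the amino acid transporter SLC6A15 and the thiamine transporter SLC19A2, and the falls by the sulfate transporter SLC26A2 and the myo-inositol transporter SLC5A3. The change was at least 2-fold for 12 of the 39. These 39 are 27.3% of the carriers. Of all 12056 regions tested, 16.4% were called, and of the 8799 with at least 400 footprints, as the carriers have, 21.1% were called, 9.17% higher and 11.9% lower. Ranges of the groups were apart for 98 of the 143 carriers (68.5%), close to the 67.3% of all regions with at least 400 footprints. The median log2 fold change of the carriers was 0.04, with 78 above 0 and 65 below, against -0.00 for all regions of that depth. Leaving out 1 of the 4 libraries lowered the number called to 15 (without siControl replicate 1 or siTARG1 replicate 1), 16 (without siControl replicate 2) or 18 (without siTARG1 replicate 2), and edgeR called 57. One carrier, SLC16A12, received no adjusted p: it had 7.03 and 8.34 normalized counts in siControl and 4.16 and 1.13 in siTARG1. Calls were spread over 11 of the 13 classes of transporters, and the fatty acid and organic ion transporters had none. Those named below among the 12 largest rises and 12 largest falls follow the rule, and the other called members were added after their values were seen.

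**Figure D2:**
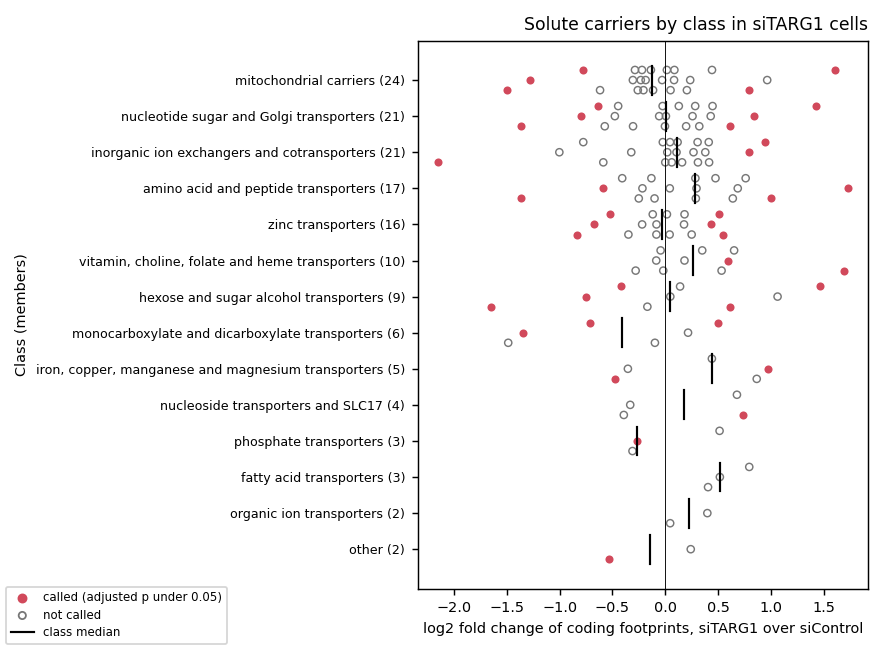
Log2 fold change of coding footprints in siTARG1 over siControl cells (horizontal axis) for each of the 143 solute carriers, by class, with the number of members in brackets. Filled points are the 39 called members, open points the others, and bars the class medians. Calls lie on both sides of 0 in 8 of the classes, mitochondrial carriers, zinc and hexose transporters among them.

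Among amino acid and peptide transporters, 2 of 17 rose and 2 fell. SLC6A15 (chromosome 12, 85253270 to 85307408, minus strand), a sodium-dependent transporter of branched-chain and other neutral amino acids, stood at 87.0 and 79.9 in siControl and at 281.3 and 273.3 in siTARG1 libraries, in normalized counts as throughout the comparisons. Its log2 fold change of 1.73 (SE 0.22, adjusted p 5.34e-13) was the largest rise among the carriers. SLC7A2 (CAT2), which imports arginine and lysine, went from 74.7 and 59.6 to 147.3 and 121.5 (1.00, SE 0.29, adjusted p 0.00582). SLC36A1, a proton-coupled amino acid transporter of lysosomes, fell from 79.1 and 93.0 to 30.8 and 35.99 (-1.37, SE 0.37, adjusted p 0.00264), and the peptide transporter SLC15A2 fell by 0.59 on the log2 scale. None of the 5 SLC38 members that were kept was called, with log2 fold changes from -0.25 to 0.76. The highest of these was SLC38A4, at 61.5 and 91.8 in siControl and 104.9 and 154.1 in siTARG1 cells (adjusted p 0.0715).

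Of the 10 transporters of vitamins, choline, folate and heme, 2 rose and none fell. SLC19A2 (chromosome 1, 169433147 to 169455182, minus strand), a high-affinity thiamine transporter, had 51.9 and 36.95 counts in siControl and 154.0 and 136.1 in siTARG1 libraries. Its log2 fold change was 1.69 (SE 0.31, adjusted p 1.36e-06), whereas SLC19A1, the reduced folate carrier of the same family, stood at -0.09 and was not called. SLC49A4, a protein of the lysosomal membrane, rose by 0.60 on the log2 scale (adjusted p 0.0049).

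Hexose and sugar alcohol transporters moved in both directions, with 2 rises and 3 falls among 9. SLC5A3 (chromosome 21, 35445878 to 35478559, plus strand), which takes up the osmolyte myo-inositol with sodium, fell from 446.5 and 436.3 counts to 129.0 and 152.9 (-1.65, SE 0.18, adjusted p 3.295e-18). SLC2A10 (GLUT10) rose from 56.3 and 63.2 to 150.7 and 178.8 (1.47, SE 0.28, adjusted p 3.85e-06). SLC2A12 (GLUT12) fell from 321.7 and 317.1 to 174.0 and 206.9 (-0.75, SE 0.18). SLC50A1 rose by 0.61 on the log2 scale. SLC2A1 (GLUT1), the SLC2 carrier with the highest level of its own, had a log2 fold change of 0.05 and was not called. The third fall, by 0.42, was in the region that joins SLC2A11 with MIF, and it cannot be assigned to either gene.

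Of the 6 SLC16 monocarboxylate transporters, 1 rose and 2 fell. SLC16A1 (MCT1) had 1074 and 988.2 counts in siControl and 1482 and 1428 in siTARG1 cells (0.50, SE 0.10, adjusted p 6.21e-06). SLC16A3 (MCT4) changed the other way, from 777.8 and 721.2 to 476.9 and 437.4 (-0.71, SE 0.13, adjusted p 5.69e-07). SLC16A5 fell from 105.5 and 84.6 to 36.6 and 38.2 (-1.35, SE 0.35, adjusted p 0.00167).

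Among the 21 exchangers and cotransporters of inorganic ions, 2 rose and 1 fell. SLC26A2 (chromosome 5, 149340321 to 149373018, plus strand), which imports the sulfate used to sulfate proteoglycans, had 420.1 and 457.7 counts in siControl and 79.9 and 120.3 in siTARG1 libraries. This was the largest change among the carriers (-2.15 on the log2 scale, SE 0.21, adjusted p 4.14e-23). The chloride-bicarbonate exchanger SLC4A2 (AE2) rose from 274.2 and 348.1 to 535.2 and 538.7 (0.79, SE 0.15, adjusted p 7.3e-06). None of the 6 members of SLC12, the family of the cation-chloride cotransporters, was called, and their log2 fold changes spanned only -0.00 to 0.31.

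The class of nucleotide sugar and Golgi transporters was set by family (SLC35, SLC33 and SLC37) and not by the substrate or place of each member. Among its 21 members, 3 rose and 3 fell. SLC35A5 went from 51.9 and 57.2 to 146.5 and 146.2 counts (1.43, SE 0.29, adjusted p 1.65e-05). SLC35F5, whose substrate is not established, rose from 433.3 and 492.3 to 839.0 and 817.5 (0.84, SE 0.12, adjusted p 5.92e-10), and SLC35B2, which supplies the Golgi with the sulfate donor PAPS, rose by 0.61. SLC35D2 fell from 98.4 and 90.6 to 29.1 and 44.98 (-1.37, SE 0.36) and SLC35A3 from 118.7 and 110.9 to 64.9 and 67.5 (-0.80, SE 0.29, adjusted p 0.0404). Both of these carry UDP-N-acetylglucosamine into the Golgi apparatus. SLC37A3 fell by 0.64 on the log2 scale.

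**Figure D3:**
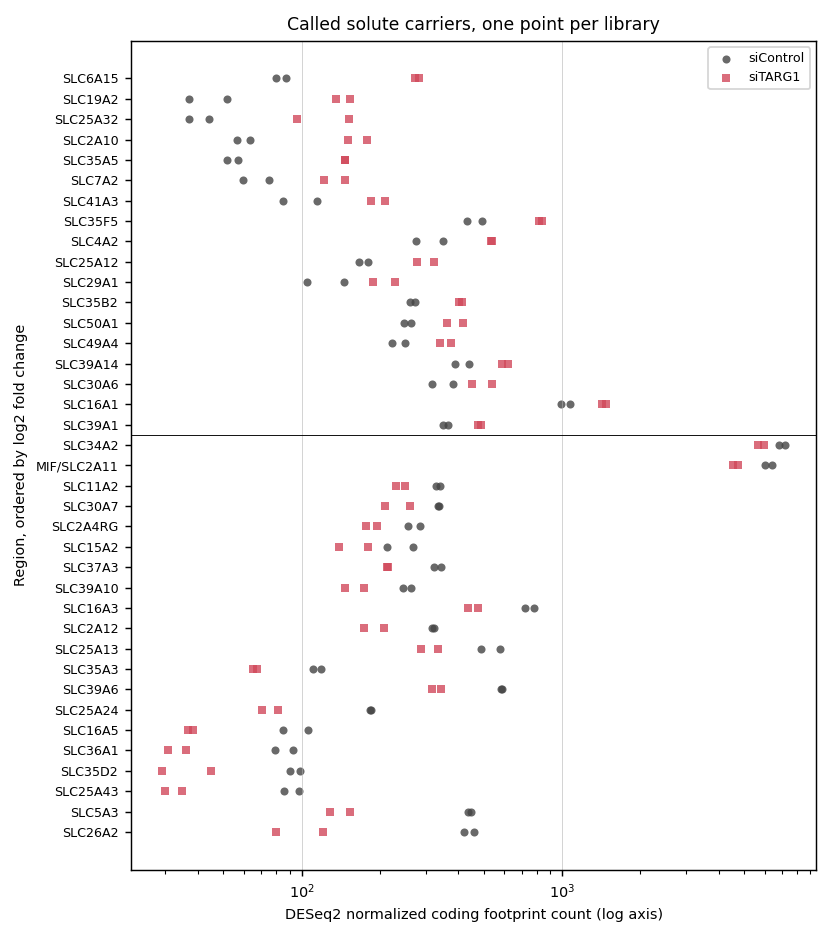
DESeq2 normalized coding footprint counts (log axis) of 38 of the 39 called solute carriers in the 2 siControl and 2 siTARG1 libraries, one point per library, ordered by log2 fold change. SLC6A15 (79.9 and 87.0 against 273.3 and 281.3) is at the top and SLC26A2 (420.1 and 457.7 against 79.9 and 120.3) at the bottom.

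Of the 24 mitochondrial SLC25 carriers, 2 rose, 3 fell and 19 were not called. SLC25A32, which brings folate into mitochondria, went from 36.9 and 44.1 to 95.7 and 151.8 counts (1.61, SE 0.35, adjusted p 6.9e-05). SLC25A12 (aralar) rose from 166.1 and 180.0 to 276.3 and 323.9 (0.79, SE 0.19), while SLC25A13 (citrin), the other aspartate-glutamate carrier of the malate-aspartate shuttle, fell from 486.9 and 579.3 to 287.2 and 332.9 (-0.78, SE 0.16, adjusted p 1.15e-05). SLC25A24, a calcium-regulated carrier of ATP-Mg and phosphate, fell from 182.8 and 184.8 to 70.8 and 81.0 (-1.28, SE 0.25), and the orphan carrier SLC25A43 from 85.3 and 97.8 to 30.0 and 34.9 (-1.50, SE 0.37). SLC25A43 was 1 of 7 members that would have had fewer than 400 footprints, had both groups of each comparison stood at the lower one's level. Differences between the 2 experiments do not enter that count. SLC16A12, for example, had a mean level of 1.34 in siControl and 15.4 in RACK1-WT libraries. The abundant carriers were not called: SLC25A5 had 3013 and 3216 counts in siControl and 3052 and 3241 in siTARG1 (0.01, SE 0.07), SLC25A3 2005 and 2187 against 2192 and 2245 (0.08, SE 0.08), and SLC25A6 780.5 and 836.8 against 764.1 and 819.8 (-0.03, SE 0.11).

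Of the 16 zinc transporters, 3 rose and 3 fell, none by 2-fold. The importer SLC39A6 (ZIP6) fell from 590.6 and 581.7 to 315.5 and 344.1 counts (-0.83, SE 0.14, adjusted p 9.73e-08), and SLC39A10 (ZIP10), its partner in a complex, from 262.8 and 244.4 to 146.5 and 173.2 (-0.67, SE 0.20). SLC39A14 (ZIP14), which also carries iron and manganese, rose from 387.6 and 439.9 to 586.0 and 620.7 (0.55, SE 0.14), and SLC39A1 (ZIP1) by 0.43. Of the 5 SLC30 members, SLC30A6 rose by 0.51 and SLC30A7 fell by 0.53 on the log2 scale, and the other 3, SLC30A5 among them, were not called. SLC39A7, the most abundant, had 693.5 and 714.0 counts in siControl and 638.4 and 657.9 in siTARG1 cells and was not called (-0.12, adjusted p 0.564).

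In the smaller classes, SLC41A3 of the magnesium transporter family rose from 114.3 and 84.6 to 208.9 and 184.4 counts (0.98, SE 0.25, adjusted p 9.61e-04). The iron importer SLC11A2 (DMT1) fell by 0.48, and the nucleoside transporter SLC29A1 (ENT1) rose by 0.73 on the log2 scale. SLC34A2, with 61542 footprints the most deeply counted carrier, fell from 6828 and 7208 to 5671 and 5996 (-0.27, SE 0.07, adjusted p 6.52e-04), the smallest change that was called. SLC2A4RG, a transcriptional regulator and no carrier, fell by 0.54. All 3 fatty acid transporters of the SLC27 family had log2 fold changes above 0 (0.40 to 0.79), and none was called. The calls of SLC35A3 and SLC15A2 were lost without the filter on low counts, and those of SLC35A3 and SLC2A4RG with exon counts. With replicate number added to the fit, the calls lost included SLC35A3, SLC15A2, SLC2A4RG, SLC39A10, SLC30A7, SLC11A2, SLC39A1 and SLC29A1.

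In several families, called members moved apart. In each of 6 pairs, picked after their values were seen, one member rose and another of the same family fell, so that their ratio per kb differed between the siRNA groups by more than it differed between libraries of a group. SLC16A1 over SLC16A3 was 1.28 and 1.27 in siControl and 2.89 and 3.04 in siTARG1 libraries. SLC25A12 over SLC25A13 was 0.34 and 0.31 in siControl and 0.96 and 0.97 in siTARG1, and SLC2A10 over SLC2A12 0.20 and 0.23 against 0.99 and 0.99. A higher ratio in siTARG1 than in siControl libraries was fixed in advance by this choice of pairs and adds nothing to the calls. The RACK1 libraries also lay below the siTARG1 libraries in every pair, but in different cells. RACK1-WT and RACK1-Mut ranges overlapped in all 6 pairs, as for SLC25A12 over SLC25A13 at 0.436 and 0.446 against 0.432 and 0.477.

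**Figure D4:**
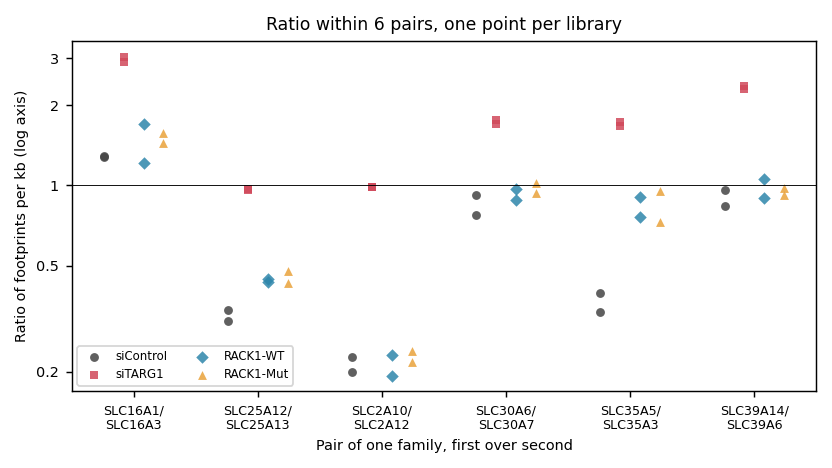
Ratio of footprints per kb (log axis) between a rising and a falling member of the same family, for 6 pairs chosen after their values were seen, with one point per library. The siTARG1 libraries lie above the other 6 in each pair, which for siControl follows from the choice of pairs. For SLC16A1 over SLC16A3 they lie at 2.89 and 3.04 against 1.22 to 1.69 elsewhere.

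Of 26 listed genes that work with solute carriers, 23 were tested in siTARG1 cells. Over all regions tested 16.4% were called, and 21.1% of those with at least 400 footprints. Of the 23 partner genes, 2 rose and 4 fell. Among them were ATP1B1, a subunit of the sodium pump that powers sodium-coupled carriers (-0.68), the scaffold NHERF1 (-0.75), the mitochondrial porins VDAC1 (0.63) and VDAC2 (-0.35), and the phosphate exporter XPR1 (0.56). BSG, the chaperone of SLC16A1 and SLC16A3, was not called (-0.12, adjusted p 0.331).

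An earlier analysis of these same libraries had picked out 2 sequences whose 7-mers were frequent in the 3′ UTRs of regions that changed in siTARG1 cells, TGAACATA for falls and TGAATATA for rises. The counts that follow therefore include the data that chose them and carry no test. Each sequence gives 2 overlapping 7-mers, its first and its last 7 letters, which were searched on the mRNA strand of the annotated 3′ UTRs. A 7-mer of TGAACATA was in the 3′ UTR of 9 of the 20 carriers that fell, 4 of the 19 that rose and 22 of the other 104. Over all regions tested that had a 3′ UTR, it was in 39.1% of those that fell, 15.0% of those that rose, 18.2% of the rest and 19.9% of all. A 7-mer of TGAATATA was in 9 of the 19 carriers that rose, 7 of the 20 that fell and 24 of the other 104, against 49.4%, 26.03% and 24.5% of all regions, and 26.4% of all together. Without the SLC2A11 region and SLC2A4RG, which do not measure a carrier, each sequence had a 7-mer in 7 of the 18 carriers that fell. The counts were not adjusted for length of the 3′ UTR. The median longest 3′ UTR was 2066 nt for carriers that fell, 1940 for those that rose and 1520 for the others. A match is a description of the sequence and not a site of action.

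The sites shown are the matches of all 8 letters in called carriers and, for SLC5A3 and SLC19A2, which had the next largest fall and rise after SLC26A2 and SLC6A15, a match of 7. Letters in capitals mark the match, and each site is read from GRCh37 on the strand of the mRNA. SLC26A2, the largest fall, and SLC11A2 hold all 8 letters of the first sequence (chr5:149366511-149366540, plus strand, and chr12:51382025-51382054, minus strand), and SLC5A3 holds 7 (chr21:35477958-35477986, plus strand).
SLC26A2: atgagtgtgtaTGAACATAccaatctatgt
SLC11A2: ggtttactgtgTGAACATAgccaaaagtat
SLC5A3: aatgaagttgaTGAACATtaattttgtta

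Among rises, SLC6A15 (chr12:85254947-85254976, minus strand) and SLC35A5 (chr3:112302888-112302917, plus strand) hold all 8 letters of the second sequence, and SLC19A2 (chr1:169433949-169433977, minus strand) holds 7.
SLC6A15: gcacatttctaTGAATATAttatgtagata
SLC35A5: tttcatgcagaTGAATATAaggtaatatac
SLC19A2: gtagatcatctTGAATATttgcttaaaat

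The division was not clean. All 8 letters of the second sequence were also found in SLC26A2 (chr5:149365141-149365170, plus strand) and SLC37A3 (chr7:140034012-140034041, minus strand), which fell, so that as many falls as rises held them.
SLC26A2: tagccctgatcTGAATATAaaagtgagaaa
SLC37A3: taatcgagtgtTGAATATAtcatgtaattt
SLC5A3, SLC25A24, SLC30A7, SLC39A6 and SLC39A10, which fell, hold a 7-mer of TGAATATA as well. In SLC5A3 such 7-mers were found at several places. SLC6A15, SLC35F5, SLC30A6 and SLC7A2, which rose, hold a 7-mer of TGAACATA.

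None of the 143 solute carriers was called in RACK1-Mut cells by DESeq2 or by edgeR. At an unadjusted p under 0.05 there were 2 in the DESeq2 and 10 in the edgeR fit. Over all 12520 regions tested, 10 were called (0.0799%), which is 0.114% of those with at least 400 footprints, and 1.64% had an unadjusted p under 0.05, against 1.4% of the carriers. The log2 fold changes of the carriers ranged from -0.56 to 0.38 with a median of -0.02, and 131 of the 143 lay within 0.25 of 0. Ranges of the groups were apart for 52 carriers (36.4%), against 38.5% of all regions of that depth. The median SE of a carrier's log2 fold change was 0.19. Changes well above that size could go uncalled at this depth, as for SLC2A8 (-0.56, SE 0.33, adjusted p 0.9999 in DESeq2).

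The carrier with the smallest p was SLC26A2, at 697.2 and 642.2 normalized counts in RACK1-WT and 918.6 and 764.6 in RACK1-Mut libraries (log2 fold change 0.33, SE 0.12, unadjusted p 0.00529, adjusted p 0.9999 in DESeq2). The direction was opposite to that in siTARG1 cells. SLC2A1 (GLUT1) had 1128 and 1128 counts in RACK1-WT and 965.1 and 994.0 in RACK1-Mut (-0.20, SE 0.10, unadjusted p 0.0328). The remaining ones of the 5 smallest p-values above 0 were those of SLC12A2 (0.23), SLC30A9 (0.26), SLC25A44 (0.38) and SLC35E2B (0.35), and below 0 those of SLC44A2 (-0.21), SLC2A8 (-0.56), SLC25A3 (-0.11) and SLC39A14 (-0.17), with unadjusted p from 0.0735 to 0.169. By class, the medians ran from -0.12 for fatty acid and vitamin transporters to 0.05 for the class of nucleotide sugar and Golgi transporters. All 3 SLC27 members lay below 0 and 15 of 24 mitochondrial carriers did, none of them called. None of the 23 tested partner genes was called by DESeq2, and 0 had an unadjusted p under 0.05.

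The members that changed in siTARG1 cells showed no common direction in RACK1-Mut cells: of the 39, 19 had a log2 fold change of the same sign and 20 of the opposite sign. Across all 143 carriers the fold changes of the comparisons had a Pearson correlation of -0.05 and a Spearman correlation of -0.02, given as a description since genes are not independent replicates. SLC5A3, for example, had 963.8 and 921.7 counts in RACK1-WT and 1050 and 1031 in RACK1-Mut cells (0.14), and SLC25A32 122.9 and 113.6 against 108.6 and 116.0 (-0.08).

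**Figure D5:**
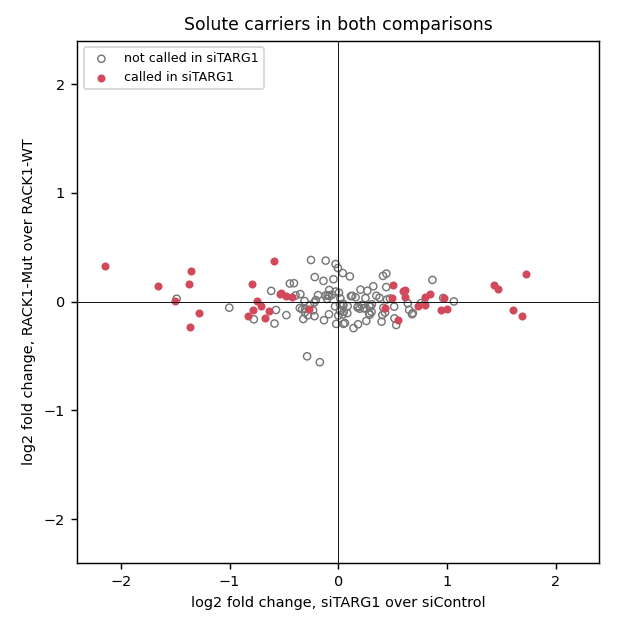
Log2 fold changes of the 143 solute carriers in siTARG1 over siControl (horizontal) and RACK1-Mut over RACK1-WT (vertical), on equal axes, with the 39 called in siTARG1 cells filled. Values reach from -2.15 to 1.73 on the horizontal axis but only from -0.56 to 0.38 on the vertical one.

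Footprints upstream of the coding sequence made up 2.72% to 3.28% of all footprints on the carriers' UTRs and coding sequences, against 3.85% to 4.34% over all regions. Over all regions the share was 4.145% and 4.216% in RACK1-WT and lower, at 3.85% and 3.968%, in RACK1-Mut libraries. In siTARG1 cells the share was 3.08% ± 0.11 against 2.98% ± 0.04 in siControl (SD, n = 2, exact two-sided permutation p 0.67), and in RACK1-Mut cells it was 3.08% ± 0.29 against 2.95% ± 0.33 in RACK1-WT (exact p 0.67). With 2 libraries a group this test cannot give a p below 0.33. It also ignores replicate numbers. In the RACK1 experiment the carriers' share was 2.72% (RACK1-WT) and 2.88% (RACK1-Mut) in replicate 1, and 3.19% and 3.28% in replicate 2. The SDs there include that difference. Members differed widely, with a median share of 1.69% and 7 members above 20%. Highest was SLC25A44, a mitochondrial carrier of branched-chain amino acids, with 784 footprints in its 5′ UTR and 875 in its coding sequence (46.9%), followed by SLC35E2B (34.1%), the magnesium transporter SLC41A1 (28.1%), the GDP-fucose transporter SLC35C1 (27.5%) and SLC35C2 (26.3%). The share of SLC25A44 was 44.9% and 53.4% in RACK1-WT and 39.5% and 40.3% in RACK1-Mut libraries, and that of SLC35E2B 35.1% and 36.1% against 30.4% and 27.4%. Libraries of a single group also differed in these shares. In siControl they were 56.4% and 38.5% for SLC25A44 and 40.1% and 33.5% for SLC35E2B. In both genes the coding counts alone had been among the higher ones in RACK1-Mut cells, and the log2 fold change of their exon counts, which include the UTRs, was 0.10 and 0.13. The share of SLC41A1 was 18.8% and 16.5% in siControl and 26.8% and 30.2% in siTARG1 libraries. It rests on few 5′ UTR footprints, 21 and 17 in siControl and 30 and 29 in siTARG1. These members were picked for their shares after seeing them, and the differences were not tested.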

How the data were processed

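Ribo-seq libraries of OVCAR3 cells were analysed as deposited. Per the file headers, the deposited counts are whole numbers of footprints per region, obtained with Plastid from reads of 26 to 36 nt by a position 14 nt from their 5′ ends. The methods give a 3′ offset instead, which was not resolved. Reads had been filtered with Bowtie 1.1.2 and aligned with TopHat2 2.1.1 (submitters' processing notes) on hg19 (GRCh37) with GENCODE release 24. Whether reads with one molecular identifier were collapsed is not stated, and errors from counting cover counting only. Deposited lengths were used for levels. Symbols came from GENCODE release 44 lifted to GRCh37 (19612 of 20165 regions, 97.3%). A called carrier and a partner gene are not reported here by name. RNA-seq was not used here, so translation efficiency is not given.

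Following the study, coding counts were fitted with DESeq2 1.42.0 in R 4.3.3, for the 4 libraries of each comparison, over regions with at least 10 counts in sum. Calls had a Benjamini-Hochberg adjusted p under 0.05. Alternatives were edgeR 4.0.16, TMM factors, other count filters, exon counts, all 8 libraries, a replicate block and each library left out. The code was tested on simulated data. The members, classes, partner list and markers were chosen with earlier results of these data known, and so were the tests. The genes to name were the 12 largest rises and falls among called carriers, the 5 smallest p-values in each direction where none was called, the 10 highest levels, the leader of each class and the 3 regions nearest the threshold on each side.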

Additional observations from a re-analysis of the deposited data

How the results depend on the processing

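In siTARG1 cells, 39 carriers were called, and 57 by edgeR, 39 with TMM factors, 36 without a count filter, 40 with at least 10 counts in every library, 38 with exon counts, 49 with all 8 libraries in one fit and 37 without the 8 regions that join another gene or hold no carrier (a setting chosen after seeing the data). With a replicate block there were 30. Coding counts showed little pairing by replicate number. Same-numbered libraries deviated together with a correlation of 0.03 in the siRNA and 0.08 in the RACK1 experiment. The 5′ UTR share over all regions did follow the number in the siRNA experiment. For replicate 1 it was 3.97% in siControl and 4.02% in siTARG1, and for replicate 2 it was 4.33% and 4.34%. A pairing of the libraries was therefore not excluded. Of the 39 calls, 30 were kept in all 7 refits of the full tables. Among those lost, SLC35A3, SLC15A2 and SLC2A4RG were lost in 2 or 3 of them, and SLC39A10, SLC30A7, SLC11A2, SLC39A1 and SLC29A1 with the replicate block only. Leaving out 1 library left 15 to 18 carriers called, 12 of them in all 4 such fits, and 17 of the 39 calls were made in none; these fits have fewer libraries and assume that the lone library varies like the other group. No named carrier changed sign. The median log2 fold change of the carriers in siTARG1 cells was 0.04 and ranged from -0.0019 to 0.0594 with 1 library left out, and that in RACK1-Mut cells, -0.02, ranged from -0.0111 to 0.0131. In RACK1-Mut cells 0 carriers were called by DESeq2 under any of these settings and 0 by edgeR (2 and 10 at an unadjusted p under 0.05). With all 8 libraries in one fit, 137 of them had no adjusted p there. The difference in 5′ UTR share in siTARG1 cells, 0.10 percentage points, was -0.33 as the median over members, and the cause was not tested. Depth limited the least covered carriers, whose lowest count in a library was 1.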
